A study of Homo sapiens and Canis lupus familiaris with 27 samples.

Results

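CT1258 is a prostate adenocarcinoma cell line from a dog, and its response to 12 h of PDA-66 is described here from 6 of the 27 samples of the study. The samples were chosen by their labels: 3 samples after 12 h with 15 μM PDA-66, and 3 control samples with 0.15% (v/v) of the vehicle DMSO. The controls carry a label of 24 h, so the length of culture and the exposure to PDA-66 cannot be told apart in this comparison. All samples come from 1 cell line that was established from 1 tumour, and for each condition 3 independent biological replicates were prepared according to the methods of the study. The study also holds 3 samples of CT1258 after 24 h with the same dose, which enter the estimate of the spread here, and samples of 2 human cell lines. It asked how prostate carcinoma cells of both species respond to the compound.

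PDA-66 is an indolylmaleimide, a small molecule that is known to depolymerise microtubules. Microtubules are built from α- and β-tubulin and form the spindle that separates chromosomes in mitosis. Chromosomes that are not attached to the spindle keep the spindle assembly checkpoint active, which holds the anaphase promoting complex back and so delays the destruction of cyclin B and the exit from mitosis. Cells also answer to a lack of amino acids or to misfolded proteins through the transcription factor ATF4 and its targets, a programme known as the integrated stress response.

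The deposited canine counts held 16028 rows, fewer than the annotated genes on which reads were counted according to the methods. The counts were scaled to a common library total (counts per 1000000, CPM). The DMSO samples held 19909616 to 20976950 counts and the PDA-66 samples 7203534 to 8325867, so that 1 CPM stands for 20.1 to 20.2 counts in a control and 7.49 to 8.34 counts after PDA-66. After removal of genes with few counts, 9886 genes were tested, and those with adjusted p-values under 0.001 in edgeR's quasi-likelihood test were called differentially expressed genes (DEGs). Values of single samples are given in CPM in the order of replicates 1, 2 and 3, the controls first, and fold changes are on the log2 scale, PDA-66 against DMSO. The gene groups held 934 genes, of which 779 had a row in the table and 688 were tested. Of these, 682 lay over the limit of the filter (1.22 CPM) in all 6 samples.

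DMSO replicate 2 stood apart from the other controls: the chi-square of its counts per degree of freedom was 50.7 and 50.9 against DMSO replicates 1 and 3, compared with 3.81 between these 2 and with 1.57 to 7.41 between the PDA-66 samples. Its log2 difference from the other controls was lower for long genes, with a Spearman's rho of -0.615 across 9382 genes against the length of the human transcript of the same name. The share of counts on mitochondrial entries was 2.86 to 3.35% in the controls and 4.41 to 5.88% after PDA-66, and its part in the results was not tested. Finally, the log2 fold change after PDA-66 went along with the GC content of the human transcript, with a rho of -0.636 across the same 9382 genes, which share their libraries and are not independent. In the fifth of genes with the lowest GC content, the median log2 fold change was 0.59, and in the fifth with the highest it was -0.64. Between samples of the same treatment, the rho with GC content was 0.307 for DMSO replicate 2 against 1 and 3. It was -0.238 for DMSO replicate 1 against 3 and 0.469 for PDA-66 12 h replicate 3 against 1 and 2. Log2 differences over 1 were found in 115, 9 and 16 genes in these comparisons and in 1776 after PDA-66. In these samples, the part of the relation after PDA-66 that comes from library preparation and the part that comes from the cells cannot be told apart. Gene groups are therefore given also after a correction for GC content and length, which was chosen after the data were seen, and without DMSO replicate 2 where that moved a count of DEGs by over 1.5 times. The correction also removes any true change that goes along with GC content. Fold changes of single genes are given without it unless stated, and it made some of them smaller and others larger.

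**Figure D1:**
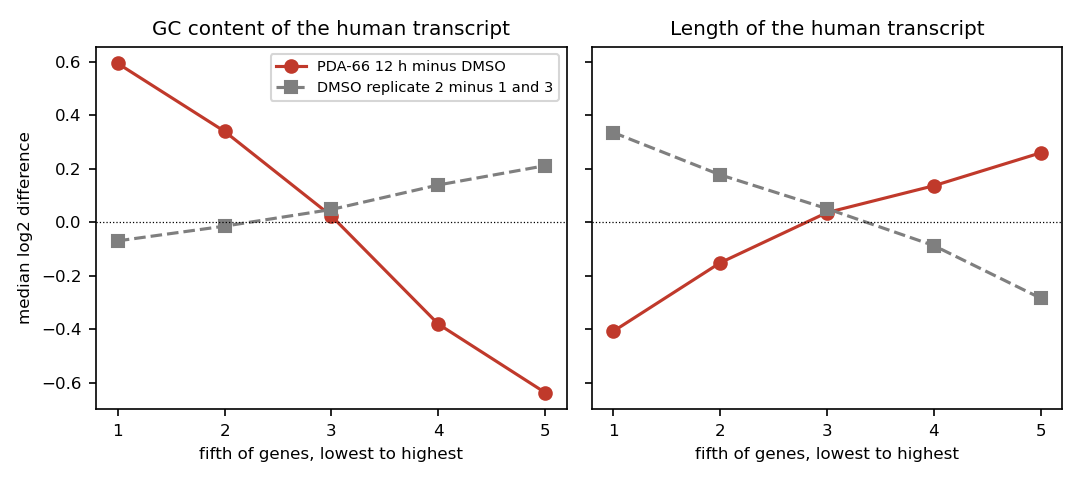
Median log2 difference (vertical axis) of genes sorted into 5 groups of equal size by GC content (left) or length (right) of the human transcript of the same symbol, with PDA-66 12 h minus DMSO as red circles and DMSO replicate 2 minus DMSO replicates 1 and 3 as grey squares. The red line falls from 0.59 to -0.64 along GC content and rises from -0.41 to 0.26 along length.

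Among the 9886 genes tested, 4383 were DEGs after 12 h, which is 44.3% of them. Of all genes tested, 22.2% were higher and 22.1% were lower after PDA-66. The level changed at least 2-fold in 1653 DEGs, 848 higher and 805 lower, and the median absolute log2 fold change of the DEGs was 0.874. The median over all genes tested was -0.00246. With the control counts thinned to the depth of a PDA-66 sample, 4334 DEGs were found. Without DMSO replicate 2, 5567 of 9934 genes tested were DEGs, and the counts of gene groups without this sample stand beside this larger share. With the correction for GC content and length, 3462 of 9382 genes (36.9%) were DEGs, of which 2246 were DEGs without the correction too. All 4383 DEGs had no overlap between the 3 controls and the 3 PDA-66 samples, as had 72.8% of all genes tested. Of the DEGs, 305 changed by less than 0.5 on the log2 scale, and a gene that was not called may still differ by such an amount.

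Of 18 genes of mitotic entry tested, 13 were higher and 1 was lower, with a median log2 fold change of 0.91. CCNB1, which encodes cyclin B1, the partner that activates CDK1, was at 13.2, 15.4 and 13.2 CPM in the DMSO samples and 107, 110.0 and 120.0 CPM after PDA-66. The lowest PDA-66 sample thus lay far above the highest control, and the groups did not overlap. Its level rose by 3.01 on the log2 scale (standard error 0.098, adjusted p = 4.13e-10, edgeR quasi-likelihood test). AURKA, the kinase that matures centrosomes, was at 24.2, 25.6 and 24.8 CPM in the DMSO samples and 107, 106 and 107 CPM after PDA-66. Its samples lay close together within each group, and the log2 fold change was 2.10 (standard error 0.0776). For CDK1, the kinase that drives entry into mitosis, 37.4, 45.5 and 33.3 CPM in the DMSO samples and 137, 149 and 121 CPM after PDA-66 were measured, a log2 fold change of 1.81. GWL_CANFA, the Greatwall kinase that holds back a phosphatase during mitosis, rose by 1.96. The member that was lower was CDC25B (-0.67), a phosphatase that activates CDK1, and it was named after its value was seen, as are all members below that moved against the rest of their group.

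PLK1, a kinase of mitotic entry and spindle assembly, had 86.9, 90.4 and 80.1 CPM in the DMSO samples and 109, 103 and 118 CPM after PDA-66. These groups did not overlap, but the log2 fold change of 0.36 (95% confidence interval 0.18 to 0.54, adjusted p = 0.00135, edgeR) was not past the threshold. It was past it with the correction for GC content and length (0.86, adjusted p = 2.07e-07) and without DMSO replicate 2 (0.39). After the correction, 14 of the 18 genes of mitotic entry were higher and 1 was lower.

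The genes of the spindle showed the same direction, with 22 of 25 motors and assembly factors higher and 1 lower (median 1.28). HMMR, which organises spindle poles, had the highest log2 fold change of the DEGs that reached 10 CPM on average. It was at 12.2, 8.16 and 12.9 CPM in the DMSO samples and 111, 111 and 105 CPM after PDA-66, with the lowest value of all in DMSO replicate 2. KIF11, the motor that pushes the spindle poles apart, was at 105, 104 and 101 CPM in the DMSO samples and 566, 550.2 and 480.5 CPM after PDA-66. Its log2 fold change of 2.36 (standard error 0.0904) rested on controls that differed by less than 5 CPM. ASPM_CANFA, a protein of the spindle poles, rose by 2.28, although the controls were spread (74.9, 40.0 and 65.0 CPM) and DMSO replicate 2 was the lowest. NUSAP1, which bundles microtubules at chromosomes, was at 12.1, 12.1 and 11.6 CPM in the DMSO samples and 51.7, 54.8 and 50.5 CPM after PDA-66. The gene that was lower was NUMA1 (-0.47), which anchors microtubules at the poles. After the correction, 21 genes of the spindle were higher and NUMA1 was no longer called lower, with a median of 0.98.

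At the centromere and kinetochore, where microtubules attach to chromosomes, 21 of 28 genes were higher and 2 lower, and the median of 1.39 was the highest of the groups with more than 2 members tested. CASC5, also known as KNL1, the scaffold that recruits checkpoint proteins, was at 63.1, 49.0 and 62.5 CPM in the DMSO samples and 368, 361 and 294 CPM after PDA-66, a log2 fold change of 2.55. CENPE, a kinetochore motor, was at 46.5, 41.3 and 43.3 CPM in the DMSO samples and 183, 178 and 157 CPM after PDA-66 (1.98). In both genes, PDA-66 replicate 3 was the lowest of its group and still over 3 times as high as each control. CENPL, a part of the inner kinetochore, rose by 2.09. The genes that were lower were SPC24 (-1.06), a subunit of the complex that binds microtubules, and PMF1 (-0.77). With the correction, 22 genes were higher and 1 lower (median 1.05).

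**Figure D2:**
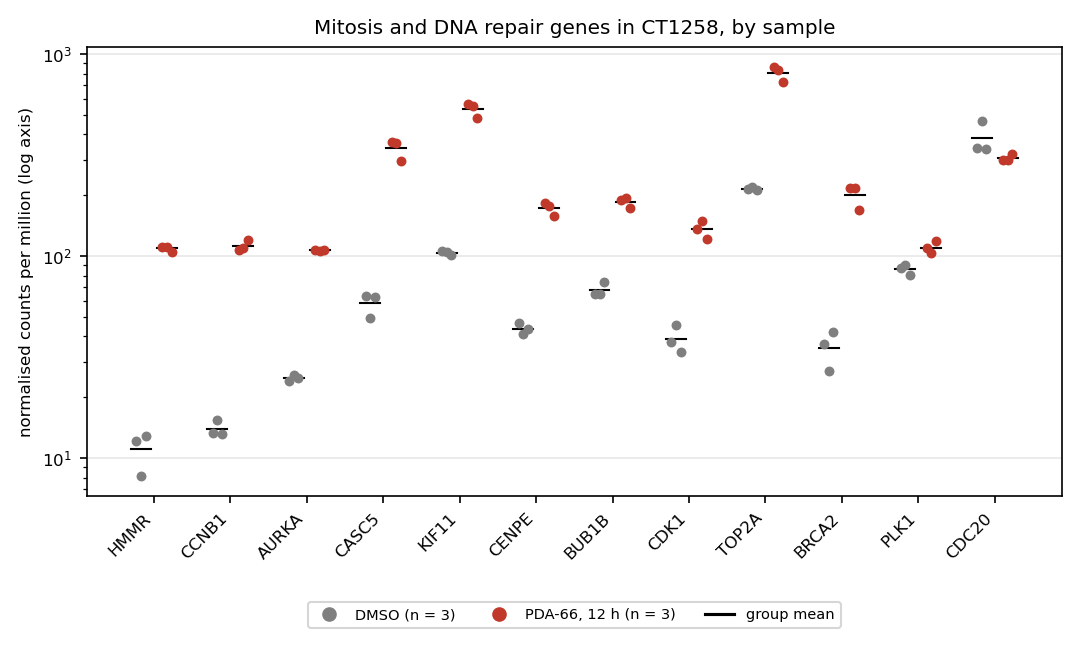
Normalised counts in CPM (log axis) of 12 genes of mitosis and DNA repair in each CT1258 sample, with DMSO in grey, PDA-66 12 h in red and the mean of 3 samples as a black line. All 12 genes are separated between the groups, 11 of them with higher values after PDA-66, whereas CDC20 lies lower.

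Of the genes of the spindle assembly checkpoint, 9 of 11 were higher, and MAD1L1 (-0.12) and MAD2L1BP (-0.24) were not called (median 1.16, and 0.74 after the correction, again with 9 higher). BUB1B, which encodes the checkpoint kinase BUBR1, rose from 64.9, 64.6 and 74.1 CPM in the controls to 189, 194 and 174 CPM after PDA-66. TTK, the kinase at the top of the checkpoint, was at 16.8, 18.4 and 16.6 CPM and 58.7, 62.6 and 50.9 CPM, and KNTC1, a part of the complex that brings the checkpoint to kinetochores, rose by 1.49 on the log2 scale. MAD2L1 was not analysed here, since the table gives no row under that symbol. In the anaphase promoting complex and its regulators, the genes were divided, with 8 of 18 higher and 4 lower, also after the correction. FBXO5, an inhibitor of the complex, was at 32.3, 34.8 and 31.4 CPM in the DMSO samples and 129, 139 and 111 CPM after PDA-66, the largest change of this group (1.94). FZR1, which activates the complex at the end of mitosis and in G1, fell by 1.12 on the log2 scale, and the small subunits ANAPC11 (-1.59), ANAPC16 (-1.25) and ANAPC13 (-0.98) were lower too. With the correction, FZR1 was at -0.55, ANAPC11 at -0.96 and ANAPC16 at -1.52. CDC20, the activator of the complex in mitosis, was at 344, 464 and 339.8 CPM in the DMSO samples and 299, 298 and 318 CPM after PDA-66. All its values after PDA-66 lay below the controls, yet the difference of -0.33 (95% confidence interval -0.57 to -0.08, adjusted p = 0.0194, edgeR) was not called, and after the correction the value was 0.25, with the opposite sign.

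Cytokinesis genes and the chromosomal passengers followed with 10 of 14 higher and 1 lower, the endosomal sorting subunit CHMP4B (-0.50). CEP55, which is needed for the final cut between daughter cells, rose by 1.88, ECT2, an activator of the contractile ring, by 1.72, ANLN by 1.48 and PRC1, which bundles the microtubules of the midzone, by 1.26. With the correction, 13 of the 14 were higher. Condensins and other proteins of chromosome structure all passed the test, 15 of 17 higher and 2, NCAPD2 (-0.38) and NCAPH2 (-1.08), lower, compared with 12 higher and 2 lower after the correction. TOP2A, which untangles DNA before segregation, was at 214, 219 and 213 CPM in the DMSO samples and 859, 836 and 724 CPM after PDA-66, and the shugoshins SGOL1 and SGOL2, which protect the cohesion of centromeres, rose by 2.03 and 2.02. MKI67, a marker of proliferating cells, was at 492, 238 and 549 CPM in the controls, where DMSO replicate 2 was at less than the others, and at 1185, 1157 and 1104 CPM after PDA-66. Its log2 fold change was 1.43 with all controls and 1.14 without DMSO replicate 2 (adjusted p = 8.91e-12, edgeR).

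Of the genes of origin licensing and firing, 13 of 22 were higher and the other 9 not called (median 0.58), and of those of the replication fork 13 of 23 were higher and 1, the ribonuclease subunit RNASEH2A (-0.93), was lower. The shares called were 59.1% and 60.9%, beside 44.3% of all genes. After the correction, 12 and 14 genes of these groups were higher. DBF4 and CDC7, which together form the kinase that fires origins, rose by 1.44 and 1.25, and by 0.80 and 0.69 with the correction. CLSPN, a mediator of the replication checkpoint, rose by 1.56, DNA2, a nuclease and helicase, by 1.71, and PCNA, the sliding clamp of the polymerases, by 0.93. MCM2, a subunit of the replicative helicase, was at 269, 304 and 272 CPM in the DMSO samples and 279, 276 and 275 CPM after PDA-66, so that the groups overlapped, and the interval of its log2 difference was -0.20 to 0.14. MCM5, a further subunit, also overlapped between the groups, with an interval of -0.43 to 0.07. After the correction, MCM2 was called higher (0.41, adjusted p = 1.29e-05, edgeR).

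In the Fanconi and homologous recombination group, 18 of 27 genes were higher and 1, FANCE (-1.08), was lower, with a median of 0.86. BRCA2, which acts in the repair of DNA breaks by recombination, was at 36.6, 26.9 and 42.0 CPM in the DMSO samples and 217, 217 and 169 CPM after PDA-66, a log2 fold change of 2.52 (standard error 0.144). BRCA1 rose from 43.9, 32.9 and 39.3 CPM to 143, 152 and 113 CPM, and FANCM, a DNA translocase, from 15.7, 11.5 and 15.3 CPM to 72.5, 78.3 and 59.3 CPM. DMSO replicate 2 was the lowest control in all 3 genes, and the groups were still well apart. With the correction, 14 genes of this group were higher and 2 lower, and the median was 0.55. Among the enzymes that make deoxynucleotides, 4 of 7 were higher (57.1% beside 44.3% of all genes), and 6 after the correction. Without DMSO replicate 2, 6 were higher and 1, the thymidylate kinase DTYMK (-0.38), was lower. RRM1 and RRM2, the subunits of ribonucleotide reductase, rose by 0.95 and 0.76, DUT, which removes dUTP, by 0.89, and TYMS, which makes thymidylate, by 0.67, a call that was lost without PDA-66 replicate 1, 2 or 3 and without DMSO replicate 3.

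The cyclins and kinases of G1 and S phase went in both directions. Of 22 genes, 11 were higher and 5 lower, and after the correction 10 and 5. CCNE1 and CCNE2, the E cyclins of the entry into S phase, rose by 1.0 and 1.66, and their kinase CDK2 by 1.03. The repressors E2F7 and E2F8 rose by 1.62 and 1.98. CCND1, the D cyclin that couples growth signals to the cycle, fell from 291, 308 and 299 CPM to 192, 195 and 191 CPM (-0.63), and the other members that were lower were CCND2 (-0.40), CDK6 (-0.95), E2F4 (-0.57) and TFDP2 (-0.84). Of the CDK inhibitors, 3 of 8 had a row in the table and 2 were tested. CDKN2C, an inhibitor of CDK4 and CDK6, was at 35.7, 52.8 and 35.3 CPM in the DMSO samples and 72.2, 73.3 and 77.7 CPM after PDA-66, a log2 fold change of 0.85. CDKN3, a phosphatase of CDK2, was at 2.98, 3.33 and 2.88 CPM and 4.0, 3.00 and 3.74 CPM with overlapping groups (-0.19 to 0.63 as the 95% confidence interval of the log2 difference). CDKN1A was not analysed here.

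**Figure D3:**
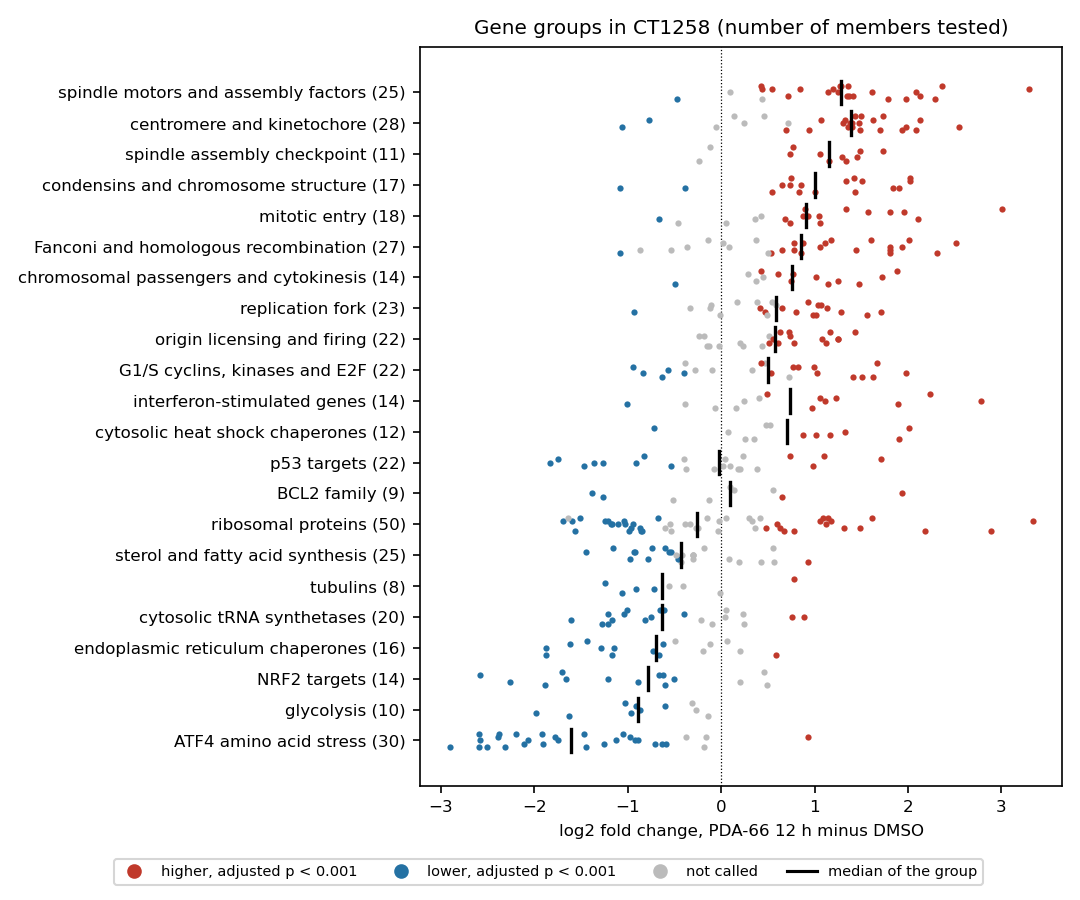
Log2 fold change after 12 h PDA-66 (horizontal axis) of every tested member of 22 gene groups, with the number of members in brackets. Red and blue points are members called higher and lower in edgeR, grey points are not called and black lines are medians, which run from 1.39 for the kinetochore to -1.60 for the ATF4 targets.

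The targets of ATF4 had the lowest median log2 fold change of the gene groups (-1.60). Of 30 genes tested, 26 were lower and 1 was higher. ATF4 itself was at 1626, 2244 and 1661 CPM in the DMSO samples and 878, 837 and 963 CPM after PDA-66. Its level fell by 1.05 on the log2 scale (standard error 0.117, adjusted p = 2.95e-06, edgeR). After the correction, its value was -0.54. Both groups were apart, with DMSO replicate 2 at the top. Of the genes for the uptake of amino acids, SLC6A9, a glycine transporter, was at 95.9, 97.8 and 95.1 CPM in the DMSO samples and 15.5, 15.3 and 17.2 CPM after PDA-66, and SLC3A2, the heavy chain of several transporters, at 459.6, 624 and 483 CPM in the DMSO samples and 104, 99.5 and 97.8 CPM after PDA-66. The controls of SLC6A9 differed by less than 3 CPM from each other, and its log2 fold change was -2.59. SLC7A11, the cystine transporter, was at 72.0, 39.7 and 77.2 CPM in the controls, where DMSO replicate 2 was the lowest, and at 10.8, 12.0 and 8.82 CPM after PDA-66 (-2.57, and -2.82 without DMSO replicate 2).

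Of the enzymes on this list, PCK2, which in mitochondria makes phosphoenolpyruvate, fell from 652, 799 and 695 CPM to 142, 138 and 152 CPM, and PYCR1, which catalyses the last step to proline, from 35.0, 37.4 and 31.3 CPM to 5.99, 6.96 and 6.82 CPM. ASNS, which makes asparagine, fell less, by 0.92 on the log2 scale. The transcription factor DDIT3, also known as CHOP, fell by 2.19. The transcription factor CEBPB (-2.51) and the stress proteins NUPR1 (-2.59) and DDIT4, an inhibitor of mTORC1 (-2.90), belonged to the 10 DEGs with the lowest fold change among those that reached 10 CPM on average. PPP1R15A, which helps to end the stress response by dephosphorylation of eIF2α, fell by 2.34. The member that was higher was ATF3 (0.93), a stress-induced transcription factor. Without DMSO replicate 2, 26 genes were lower and 1 higher, and after the correction 27 and 1 (median -1.24).

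Cytosolic tRNA synthetases, which charge tRNAs with amino acids and include ATF4 targets, were lower in 12 of 20 genes and higher in 2, DARS (0.76) and HARS (0.89). CARS fell most, from 89.3, 116 and 94.2 CPM to 32.8, 32.0 and 33.5 CPM (-1.61), and AARS, QARS and SARS had log2 fold changes of -1.21, -1.21 and -1.27. For 16 of the 20 genes a human transcript was matched, and 10 of them were lower and 1 higher after the correction.

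Among the chaperones of the endoplasmic reticulum, 10 of 16 genes were lower and 1, the co-chaperone DNAJC3 (0.58), was higher. HSPA5, also known as BiP, the main chaperone of this compartment, was at 2152, 2501 and 2192 CPM in the DMSO samples and 890.0, 883 and 751 CPM after PDA-66, a log2 fold change of -1.44 (standard error 0.130). CALR, a calcium-binding chaperone of glycoproteins, fell from 1894, 2112 and 1861 CPM to 530.5, 541 and 526 CPM, and CRELD2 and SDF2L1, which are induced with it under stress of this compartment, fell by 1.87 and 1.61. After the correction, 11 genes were lower and DNAJC3 was no longer called higher. SDF2L1 was then at -0.68 and HSPA5 at -1.63. Among the heat shock chaperones of the cytosol, 6 of 12 genes were higher and 1, the small heat shock protein HSPB1 (-0.72), was lower. That is 58.3% beside 44.3% of all genes. HSP90AA1, the inducible HSP90, was at 434, 522 and 429 CPM in the DMSO samples and 1919, 1893 and 1780.2 CPM after PDA-66, and the PDA-66 samples were more than 3 times as high as any control. HSPH1, a partner of HSP70, rose by 1.91, HSPA8, the constitutive HSP70, by 1.33 and STIP1, which links both chaperones, by 1.16. Corrected for GC content and length, 8 genes were higher and HSPB1 was no longer called lower. HSP71_CANFA, an HSP70 of which near-identical copies are known, was at 0.48 and not called.

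**Figure D4:**
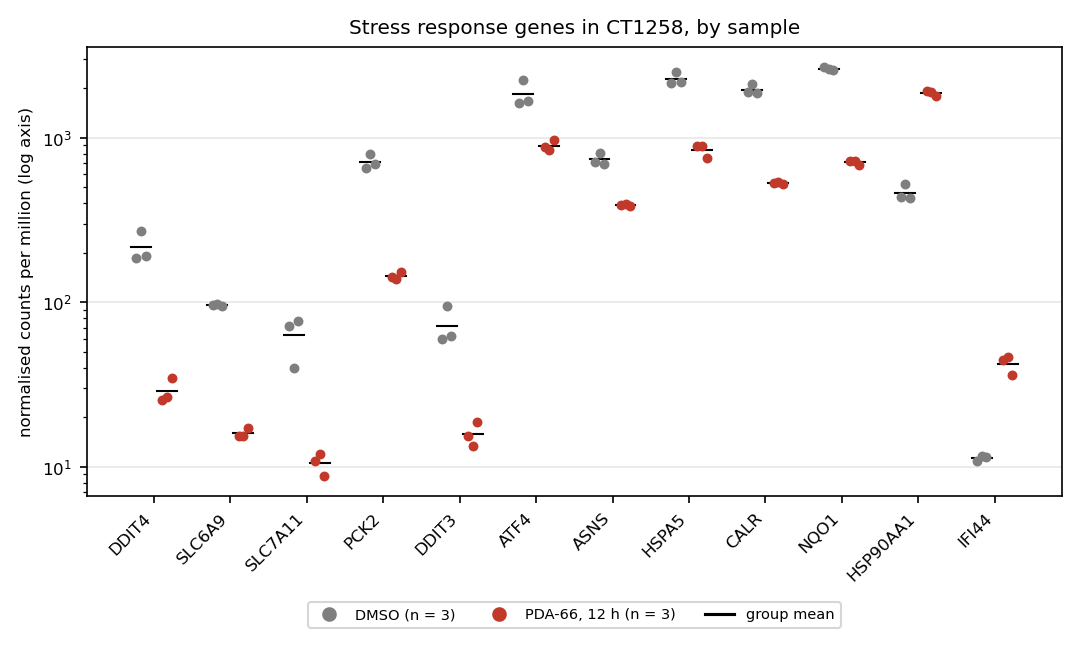
Normalised counts in CPM (log axis) of 12 stress response genes in each CT1258 sample, with DMSO in grey, PDA-66 12 h in red and the mean of 3 samples as a black line. The 10 genes from DDIT4 to NQO1 lie lower after PDA-66 without overlap, while HSP90AA1 and IFI44 lie higher.

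Targets of NRF2, the factor of the oxidative stress response, were lower in 11 of 14 genes, and GCLM (0.45) and the ferritin chains FRIL_CANFA (0.20) and FRIH_CANFA (0.50) were not called. NQO1, a quinone reductase, was at 2669, 2626 and 2573 CPM in the DMSO samples and 717, 722 and 686 CPM after PDA-66, a log2 fold change of -1.89 (standard error 0.0994). OSGIN1 fell from 45.8, 47.4 and 46.3 CPM to 7.59, 10.2 and 11.4 CPM (-2.26). SLC7A11 and SQSTM1 (-1.70) belong to this group and to the groups of ATF4 and of autophagy too, so that these counts are not independent. After the correction, 10 genes were lower and 2 higher. The ferritin chains FRIL_CANFA (0.34) and FRIH_CANFA (0.70) were called higher when DMSO replicate 2 was left out. Glycolysis genes were lower in 7 of 10, also after the correction (median -0.89, and -0.53 with it). PFKL, a phosphofructokinase, fell by 1.98 and ALDOC, an aldolase, by 1.63. Of the hypoxia targets, 6 of 14 were lower and 2, EGLN1 (0.69) and MXI1 (0.40), higher, which is 57.1% beside 44.3% of all genes. After the correction, 7 were lower and 1 higher. CA9, a carbonic anhydrase, was at 534, 687 and 485 CPM and 143, 160.1 and 147 CPM, and VEGFA_CANFA, the vascular growth factor, at -1.10 on the log2 scale.

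Interferon-stimulated genes were tested for 14 of the 23 with a row in the table, and 8 were higher and 1, IRF9 (-1.0), lower (7 and 1 after the correction). That is 64.3% beside 44.3% of all genes, and 57.1% beside 36.9% after the correction. IFI44L, at 1.59, 1.34 and 1.59 CPM in the DMSO samples and 10.7, 11.5 and 8.95 CPM after PDA-66, and IFI44, at 10.8, 11.7 and 11.5 CPM in the DMSO samples and 44.5, 46.3 and 36.0 CPM after PDA-66, did not overlap between the groups. OAS1, a sensor of double-stranded RNA, rose from 35.0, 44.3 and 36.3 CPM to 88.9, 90.1 and 92.0 CPM, and IFIT3 by 2.23. Among the cytokines and chemokines, 8 of 19 with a row were tested, and 3 were higher (37.5% beside 44.3% of all genes). IL8_CANFA, the neutrophil chemokine interleukin-8, was at 2.38, 3.48 and 3.97 CPM in the DMSO samples and 21.8, 20.4 and 17.5 CPM after PDA-66, and IL1B_CANFA and the NF-κB inhibitor TNFAIP3 rose by 2.00 and 1.15. With the correction 5 were higher, and without DMSO replicate 2 the chemokine CX3CL1 (-0.84) and the adhesion molecule ICAM1 (-0.31) were called lower and IL11 higher (0.52).

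Targets of p53 and the regulators of apoptosis went in both directions. Of 22 targets of p53 tested, 4 were higher and 8 lower, 54.5% in all beside 44.3% of all genes, with a median of -0.02. GADD45A, a DNA damage response gene, fell from 217, 343 and 246 CPM to 83.9, 78.1 and 79.0 CPM and PLK3 from 78.0, 104 and 86.4 CPM to 21.4, 22.7 and 31.5 CPM, and SESN2, which is a target of ATF4 as well, fell by 1.47. MDM2, the negative regulator of p53, was at 69.0, 78.5 and 68.6 CPM and 85.0, 83.3 and 85.5 CPM, a difference that was not called (0.23, adjusted p = 0.0218, edgeR). The members that were higher were THBS1 (1.71), APAF_CANFA, the scaffold of the apoptosome (0.99), CCNG1 (1.10) and RRM2B, a subunit of ribonucleotide reductase (0.73). After the correction, 4 were higher and 6 lower.

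In the BCL2 family, 2 of 9 genes tested were higher and 2 lower, with and without the correction. This is 44.4%, beside 44.3% of all genes without the correction and 36.9% with it. BCL2, an inhibitor of apoptosis, was at 6.60, 6.42 and 4.82 CPM in the DMSO samples and 23.8, 21.1 and 23.5 CPM after PDA-66, a log2 fold change of 1.94 (standard error 0.142). BID, a pro-apoptotic member that is cleaved by caspases, rose by 0.65. BAX, which permeabilises mitochondria, fell from 27.1, 35.5 and 27.1 CPM to 12.9, 10.4 and 14 CPM (-1.27), and BMF, a pro-apoptotic member that binds the motors of the cytoskeleton, from 19.6, 19.7 and 14.6 CPM to 6.79, 7.2 and 6.68 CPM. With the correction, BAX was at -0.60 and BMF at -1.09. MCL1, an inhibitor of apoptosis whose protein is known to be lost during a long mitotic arrest, was at 181, 176 and 180.4 CPM and 199.6, 200.1 and 193 CPM (95% confidence interval of the log2 difference -0.02 to 0.30). BAK1 and BCL2L11 overlapped between the groups, and BCL2A1 (0.55) and B2CL2_CANFA, the canine BCL2L2 (-0.51), were not called. BCL2A1 and B2CL2_CANFA were called without DMSO replicate 2 and in several other tests with all samples. BBC3, BCL2L1 and PMAIP1 were not analysed here.

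The tubulin genes, whose products are bound by drugs of this kind, were lower in 4 of 8 and higher in 1. That is 62.5% beside 44.3% of all genes. TUBA1B, an α-tubulin, was at 1972, 2681 and 2033 CPM in the DMSO samples and 1024, 1097 and 1076 CPM after PDA-66. Its level fell by 1.06 on the log2 scale (standard error 0.120, adjusted p = 3.19e-06, edgeR). The β-tubulins TUBB2B, TUBB6 and TUBB fell by 1.24, 0.91 and 0.71. TUBB4A rose from 30.3, 33.7 and 29.2 CPM to 55.2, 50.6 and 54.4 CPM, whereas TUBB4B, at 343, 412 and 343 CPM and 347, 373 and 373 CPM, overlapped between the groups. TUBB1 (-0.56) and TUBG1 (-0.41), the γ-tubulin of centrosomes, were not called. After the correction, TUBB4B was called higher (0.64, adjusted p = 2.39e-06) and TUBB1 lower (-0.72), and without DMSO replicate 2 both TUBB1 and TUBG1 were called lower. Tubulin genes are near-identical in sequence, and how reads that map to several of them were counted is not given in the sources used here, so the split between them is uncertain.

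Of the genes for tubulin folding and microtubule binding, 4 of 19 were higher and 7 lower, which is 57.9% beside 44.3% of all genes (7 and 8 without DMSO replicate 2). The plus-end protein MAPRE1 (1.07) and its relative MAPRE2 (0.58), the severing enzyme SPAST (0.62) and the folding cofactor TBCA (1.05) rose. ARHGEF2, a RhoA activator that is held on microtubules, fell by 1.33, and the folding cofactor TBCB by 1.05. STMN1, which destabilises microtubules, was at 153, 244 and 158 CPM in the controls, the highest in DMSO replicate 2, and at 277, 277 and 271 CPM after PDA-66, and was not called (0.57). It was called without DMSO replicate 2 (0.82), after the correction (0.65) and in several other tests with all samples. After the correction, 2 genes of this group were higher and 4 lower, which is 31.6% beside 36.9% of all genes. TBCA was then no longer called (0.32, adjusted p = 0.00949, edgeR), and TBCB was still called lower, at -0.34.

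Among the targets of SRF, a factor that follows the state of actin, 3 of 13 were higher and 3 lower, which is 46.2% beside 44.3% of all genes. With the correction, 6 were higher and 3 lower. CALD1 (1.31), TAGLN (1.03) and TPM1 (0.79), which bind actin filaments, rose, and the call of TAGLN was lost without PDA-66 replicate 3. ACTG1, a cytoplasmic actin, was at 8507, 8763 and 8116 CPM in the DMSO samples and 3146, 3339.8 and 3821 CPM after PDA-66, and TGFB1I1 (-1.32) and FHL2 (-0.60), both adaptors at focal adhesions, fell. ACTB_CANFA, the near-identical β-actin, was not called (-0.18). Of the targets of YAP, 1 of 8 was higher and 2, NUAK2 (-1.03) and AJUBA (-0.71), lower, which is 37.5% beside 44.3% of all genes. After the correction, 1 was higher and 1 lower, and NUAK2 was no longer called (-0.61, adjusted p = 0.00279, edgeR). AMOTL2, an inhibitor of YAP, rose from 20.4, 26.2 and 25.4 CPM to 85.7, 77.2 and 87.3 CPM. CYR61, a secreted target of YAP, was at 697, 876 and 674 CPM and 560.4, 581 and 485 CPM (-0.47, not called), and it was called lower without DMSO replicate 2, as was AMOTL1 (-0.33).

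Of the collagen and matrix genes, 2 of 12 were higher and 3 lower, which is 41.7% beside 44.3% of all genes, and 2 and 2 after the correction. THBS1, a matrix protein that activates TGF-β, rose by 1.71 and FBN1, the fibrillin of microfibrils, by 0.93. COL1A2, a chain of collagen I, fell from 87.2, 89.3 and 83.3 CPM to 25.8, 24.5 and 21.9 CPM, SPARC by 1.07 and COL7A1, a collagen of anchoring fibrils, by 0.96, a call that was lost without PDA-66 replicate 2 and after the correction. Without DMSO replicate 2, 6 genes of this group were lower. Among integrins and laminins, 3 of 14 were higher and 5 lower, which is 57.1% beside 44.3% of all genes. After the correction, 2 were higher and 6 lower, and without DMSO replicate 2 there were 5 and 6. The laminin chain LAMB2 (-1.25) was among those that fell.

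Immediate early genes were lower in 9 of 20 and higher in 2, the transcription factors ATF3 (0.93) and JUN (0.58), which is 55% beside 44.3% of all genes. KLF4, a transcription factor, fell from 37.3, 35.1 and 35.3 CPM to 10.5, 12.7 and 14.6 CPM, and SPRY4, a feedback inhibitor of MAP kinase signalling, by 1.35. EGR1 was at 267, 237 and 248 CPM in the DMSO samples and 345, 294 and 370.3 CPM after PDA-66, higher in each PDA-66 sample, but not called (0.42, adjusted p = 0.00155, edgeR), and MYC was not called either (-0.38). With the correction, 4 were higher and 5 lower, and EGR1 was called (0.78), while JUNB was not (-0.42, and -1.16 without the correction).

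Of 50 ribosomal protein genes, 16 were higher and 18 lower (18 and 21 after the correction), with log2 fold changes from -1.69 to 3.34. RPL31 was at 5.61, 6.17 and 5.41 CPM in the DMSO samples and 42.0, 35.6 and 50.1 CPM after PDA-66, RPL21 at 26.9, 34.2 and 27.1 CPM in the DMSO samples and 137, 133 and 129 CPM after PDA-66, and RPL28 at 1264, 1737 and 1212 CPM in the DMSO samples and 405, 411 and 490.4 CPM after PDA-66. The genes of this particle thus went in both directions. Genes of this family, and NPM1 (2.24), ETF1 (2.80) and TMSB4XP4 (2.68), which are among the most increased genes, have many near-identical copies in mammalian genomes, so that their counts are uncertain. Oxidative phosphorylation genes of the nucleus were lower in 13 of 29 and higher in 3, which is 55.2% beside 44.3% of all genes (15 and 2 after the correction). CYC_CANFA, cytochrome c, was at 445, 548 and 432 CPM and 1287, 1219.8 and 1113 CPM, and NDUFV1, a subunit of complex I, at -1.38 on the log2 scale. NDUFB5 (1.34) and NDUFS1 (0.57) were the others that rose, NDUFB5 not so after the correction, and without DMSO replicate 2 there were 6 higher and 15 lower. Proteasome subunits were higher in 6 of 25 and lower in 5, which is 44% beside 44.3% of all genes. After the correction, 7 were higher and 4 lower. Without DMSO replicate 2 there were 10 and 7, beside 5567 DEGs among all 9934 genes tested. Of them, PSMA6 (2.07) was the most increased and PSMB6 (-0.76) the most decreased. Ribosome biogenesis genes were lower in 6 of 23 and higher in 2, NPM1 and UTP20 (0.75), which is 34.8% beside 44.3% of all genes. After the correction, 5 were lower and 3 higher. Without DMSO replicate 2 there were 7 and 4, again beside 5567 DEGs among all 9934 genes.

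In the synthesis of sterols and fatty acids, 11 of 25 genes were lower and 1, the elongase ELOVL6 (0.93), was higher, which is 48% beside 44.3% of all genes. SREBF2, the transcription factor that controls the sterol genes, fell from 461, 500.4 and 442 CPM to 167, 169.8 and 179 CPM. Without DMSO replicate 2, 4 were higher, among them STARD4 (0.71), which carries cholesterol. After the correction, 8 genes were lower and 1 higher (36% beside 36.9% of all genes), and MVD (-0.22) and PMVK (-0.42) were no longer called. Lysosome and autophagy genes were lower in 9 of 21 and higher in 1, with and without the correction. Without it, the gene that was higher was ATG5 (0.51). The share is 47.6%, beside 44.3% of all genes without the correction and 36.9% with it. Of the FOXO targets, 5 of 12 were lower and 2 higher, which is 58.3% beside 44.3% of all genes (5 and 4 after the correction). TXNIP, an inhibitor of thioredoxin, rose from 5.61, 7.01 and 6.06 CPM to 17.6, 21.6 and 20.2 CPM and SOD2, the mitochondrial superoxide dismutase, by 1.31, while the repressor BCL6 fell by 1.2 and the cyclin CCNG2 by 0.86. The calls of CCNG2 and BCL6 were lost when any one PDA-66 12 h sample was left out. In the group of the aryl hydrocarbon receptor, 5 genes were tested. NQO1 was lower and AHR itself higher (0.56), which is 40% beside 44.3% of all genes. AHR was not called without PDA-66 replicate 1 or 2 and had a value of -0.07 after the correction, when 3 of the 5 genes were lower. ARNT, the partner of the receptor, was called lower without DMSO replicate 2 (-0.58). CYP1A1 and CYP1B1, the enzymes that this receptor induces, were not tested.

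Outside these groups, the rule for named genes gave MCTP1, a membrane protein with calcium-binding domains, at 3.77, 3.23 and 3.33 CPM in the DMSO samples and 28.8, 25.7 and 25.8 CPM after PDA-66, and DEK, a chromatin protein, at 24.3, 22 and 18.0 CPM in the DMSO samples and 148, 143 and 132 CPM after PDA-66. PARPBP, an inhibitor of homologous recombination, rose by 2.68, MYH15, a myosin heavy chain, by 2.73 and the entry Q0QEY4_CANFA, for which the table gives no gene symbol, by 3.01. ABTB1 fell from 46.2, 59.9 and 50.4 CPM to 8.79, 8.63 and 9.89 CPM (-2.52). KLK2, a kallikrein protease of the prostate, was named after its values were seen. It was at 10.8, 3.33 and 3.58 CPM in the controls, that is 218, 67 and 72 counts, and at 0 counts in all 3 PDA-66 samples. With a floor of 3 counts over the group (0.129 CPM), its mean was at least 45.9-fold lower (adjusted p = 0.000313, edgeR), although DMSO replicate 1 held most of the reads. In each of these genes, the controls and the PDA-66 samples were apart without overlap.

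As to the identity of the cells, 10 of 16 markers of epithelium and prostate were listed, and their summed level was 16.6 to 18.7 CPM in the controls and 22.1 to 24.6 CPM after PDA-66. KRT14, TMPRSS2 and TP63 were at 0 counts in all 6 samples, which allows up to 3 counts per sample, and EPCAM had 1 count over all of them. ESRP1, a splicing regulator of epithelia, was at 13, 11.4 and 11.8 CPM and 16.5, 15.3 and 18.4 CPM and was not called (0.47). The labelled prostate adenocarcinoma thus showed few of these markers, and the keratins KRT8, KRT18 and KRT5 and the cadherin CDH1 were not analysed here. The 11 mesenchymal markers listed summed to 1276 to 1359 CPM in the controls and 1151 to 1306 CPM after PDA-66, with CDH2, SNAI2 and LUM at over 200 CPM each. Of the 11, 3 stayed under 1 CPM in all 6 samples, namely COL1A1, COL3A1 and FAP. Of 8 tested, ZEB1 (0.57) was higher and COL1A2 (-1.85) and CDH2 (-0.44) lower, which is 37.5% beside 44.3% of all genes. The calls of ZEB1 and CDH2 were lost when any single PDA-66 12 h sample was left out. After the correction, 5 of the 8 were lower and ZEB1 was at -0.05, with a median of -0.52 compared with -0.05 without it. LUM, a proteoglycan, was called higher without DMSO replicate 2 (0.49). Leukocyte markers summed to 4.03 to 5.11 CPM in the controls and 4.26 to 4.68 CPM after PDA-66, and endothelial ones to 5.11 to 6.91 CPM and 5.06 to 8.15 CPM, most of it VWF. The part of these marker levels in the results was not tested. In bulk samples, fewer cells of a kind and less RNA per cell cannot be told apart, which holds for each group above.

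**Figure D5:**
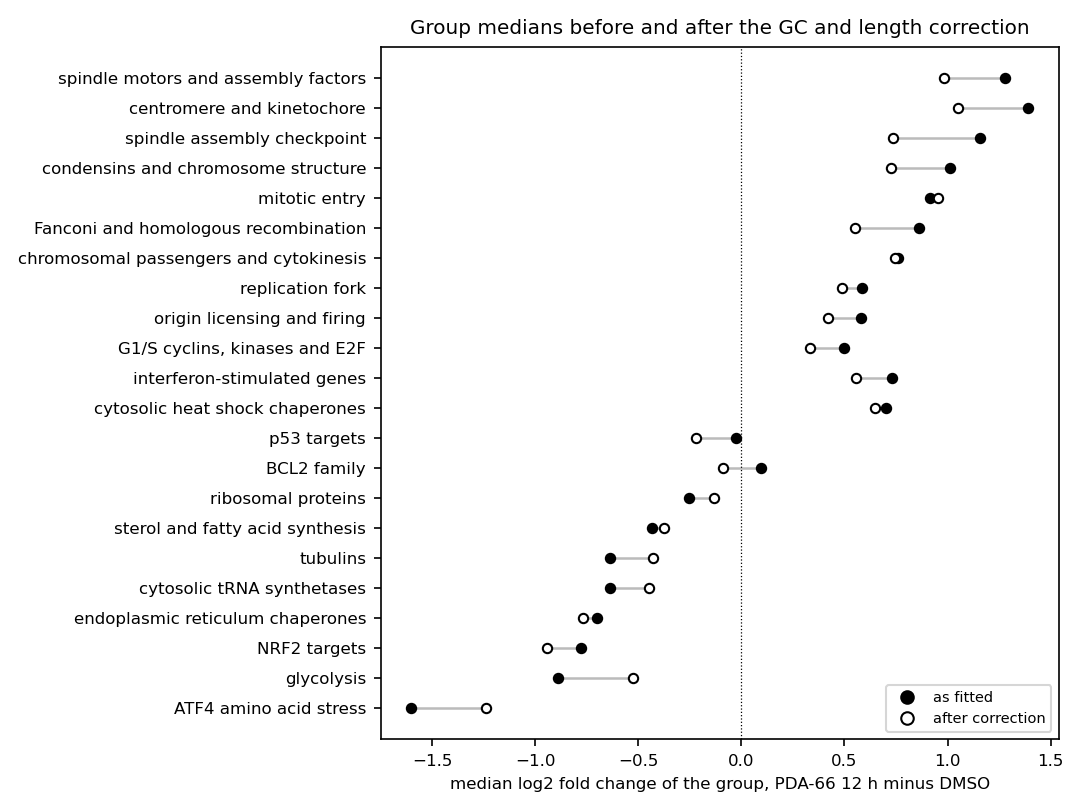
Median log2 fold change after 12 h PDA-66 of 22 gene groups (horizontal axis), as fitted (filled circles) and after the correction for GC content and length (open circles). The groups of mitosis stay above 0 and the group of ATF4 targets moves from -1.60 to -1.24, while the median of the BCL2 family crosses 0.

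The PDA-66 samples of 12 h and 24 h were compared directly, without the controls. Between them, 211 of the 9886 genes differed, which is 2.13%, and 84 of these were higher after 24 h. This number depended on single samples. It was 20 without PDA-66 12 h replicate 1, 30 without replicate 2 and 81 without replicate 3 of that group, 70, 35 and 30 without PDA-66 24 h replicates 1, 2 and 3, and 1352 without DMSO replicate 2, which enters through the shared estimate of the spread. ATF4 targets were higher after 24 h than after 12 h in 9 of 30 genes, for example SLC7A11 (1.68 on the log2 scale), SLC6A9 (1.06) and ASNS (0.74), and so were 6 of 16 endoplasmic reticulum chaperones, for example HSPA5 (0.83) and CALR (0.73). For these genes, the values of 12 h were thus the lower ones. Of the interferon-stimulated genes, 6 of 14 were lower after 24 h, with IFI44L at -1.64 and OAS1 at -1.16. Of the genes of mitosis, PLK1 (0.77), CDC20 (0.79), CCNB1 (0.70) and BUB1B (0.68) were higher after 24 h, whereas CCNE1 (-1.01), PCNA (-0.66) and E2F7 (-0.79), which act around S phase, were lower. CDKN3 was higher after 24 h by 1.31, a gene that did not differ past the threshold at 12 h.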

How the data were processed

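Poly(A) RNA of 3 DMSO and 3 PDA-66 12 h samples of CT1258 was compared, and 3 PDA-66 24 h samples entered the same model. The authors deposited a table of raw read counts per gene from single-end reads. The methods name BWA and CanFam3.1 for the canine reads, and the submitters' processing notes also list STAR 2.3.1s, which the methods give for the human samples, and edgeR 3.14.0. The use of strand and the handling of multi-mapping reads are not given in the sources used here. Counts were used as deposited.

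Genes with low counts were removed with filterByExpr, libraries were scaled by TMM, and group differences were tested with edgeR's quasi-likelihood test (edgeR 4.0.16, R 4.3.3) with Benjamini-Hochberg adjustment over all 9886 genes at 0.001. This test allows for the unequal depth of the libraries (the mean total was 2.647 times as high in the controls). Standard errors were derived from the F statistic and intervals cover 95%. CPM are TMM-scaled. The p-values rest on an estimate of the spread that all 9 CT1258 samples share, the 3 PDA-66 24 h samples among them. A fit of only the 2 groups compared gave 3508 DEGs of 10124 genes tested, and TYMS, BCL6, AHR, ZEB1 and CDH2 were not called in it. Intervals of counts cover counting error only. The steps were tested on simulated data. Plots were drawn with matplotlib 3.10.9.

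The gene lists and the comparison were chosen with earlier results of these data known. Genes were named if they were among the 10 highest or 10 lowest fold changes among non-overlapping DEGs that reached 10 CPM on average, or among the 4 largest changes of called members of a list at 2 CPM or more on average, or in a set of cell cycle, apoptosis and stress genes that is always given. Every tested tubulin, CDK inhibitor and BCL2 family member is given. Further members were named after their values were seen. A few genes that the rule names are not reported here. For 44 list members, the table holds an entry name that ends in _CANFA, and it was matched to the symbol by hand.

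Alternatives were DESeq2 (1.42.0) size factors and Wald test, limma voom (3.58.1), other edgeR tests, filters, thresholds, thinned controls, a replicate block, and each sample left out. A correction for GC content and transcript length was added after the data were seen. It took both from human transcripts of the same symbol (94.9% of genes tested) and subtracted a smooth trend, with 4 degrees of freedom each, from every library. No genome of the dog was used here, so no sequences or positions are given.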

Additional observations from a re-analysis of the deposited data

Results flagged for a closer look

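For 38 of the 190 named genes, the log2 difference between 24 h and 12 h of PDA-66 was past the threshold of edgeR's quasi-likelihood test. Among all 9886 genes tested, it was past the threshold for 211 (2.13%). Many named genes were chosen for large changes at 12 h, and both comparisons use the same 12 h samples, so these shares are not comparable. Since the controls carry 1 time only, the length of culture and the length of exposure cannot be told apart in these values. All values are log2 differences, 24 h minus 12 h. The number of such genes among all tested depended on single samples and ranged from 20, without PDA-66 12 h replicate 1, to 1352, without DMSO replicate 2.

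Genes of mitosis that were higher after 24 h were CCNB1 (0.70), AURKA (0.57), BUB1B (0.68), CDC20 (0.79) and PLK1 (0.77), as was CDKN3 (1.31). TOP2A (-0.55) and genes of S phase were lower, namely WDHD1 (-0.61), E2F7 (-0.79), CCNE1 (-1.01) and PCNA (-0.66).

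Of the ATF4 targets and chaperones, PCK2 (0.98), SLC3A2 (0.97), SLC7A11 (1.68), SLC6A9 (1.06), ASNS (0.74), CARS (0.87), CALR (0.73), CRELD2 (1.07), SDF2L1 (0.81) and HSPA5 (0.83) were higher after 24 h, and the cytosolic HSP90AA1 (-0.67) was lower. The 10 that were higher after 24 h had been lower at 12 h than in the controls, and HSP90AA1 had been higher. Most of these genes were named for large changes at 12 h. Both differences use the same 12 h samples, so the choice of genes favours opposite signs.

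The tubulins TUBB6 (0.80) and TUBB4A (0.75), the microtubule-bound ARHGEF2 (0.63), AJUBA (0.51) and the laminin chain LAMB1 (0.77) were higher after 24 h. Lower values after 24 h were found for CALD1 (-0.74), AMOTL2 (-0.81), COL1A2 (-0.96), BCL2 (-1.05), EGR1 (-1.45), TXNIP (-1.21), SOD2 (-0.58), the chemokine IL8_CANFA (-1.31) and the interferon-stimulated genes IFI44L (-1.64), IFI44 (-1.30) and OAS1 (-1.16).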

How the results depend on the processing

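The number of DEGs after 12 h stayed within 1.5 times of 4383 under every other test, scaling and filter tried, and it ranged from 3206 to 5567 when 1 sample was left out. It was 6897 at an adjusted p-value under 0.05 and 1653 when a log2 change of 1 or more was required. Of the DEGs, 73 to 100% were shared with each of 20 settings, but 51.2% with the correction for GC content and length. Of 171 named genes called, 155 kept the call in every one of the 21 settings in which they were tested. The correction for GC content and length covered 167 of the 171, and 157 of these were still called the same way.

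The 211 genes between 24 h and 12 h were 345 with no filter, 730 in edgeR's likelihood ratio test, 667 in DESeq2, 2073 in limma voom, 1782 in edgeR's exact test, 1172 in a fit of only these groups, 533 with the correction, 1907 at an adjusted p-value under 0.05 and 44 with a log2 change of 1 or more. With single samples left out, they ranged from 20 to 1352. The cause was not tested.

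With the correction, the sign turned for AHR (-0.0733), ZEB1 (-0.0465), MCM2 (0.41) and TUBB4B (0.64), and for genes called neither with nor without it, namely CDC20 (0.25), MCM5 (0.22), MDM2 (-0.36), MCL1 (-0.11), BAK1 (0.43), BCL2L11 (-0.09) and TUBG1 (0.19). It also turned for the medians of the aryl hydrocarbon receptor group (-0.39), the BCL2 family (-0.09), the epithelial markers (-0.07), the leukocyte markers (0.36), the proteasome (0.009) and the SRF targets (0.27). The p53 median turned to 0.004 under library size scaling.

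Samples with the same replicate number did not deviate together (r of 0.153, -0.0665 and -0.0338 across genes), so the numbers were not taken as pairs. With the replicate block, 4112 genes were called after 12 h and 132 between 24 h and 12 h.

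Counts were 2.647 times as deep in the controls, and a PDA-66 sample held 7.49 to 8.34 counts per CPM, which limits the precision for genes near 1 CPM.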
